A study of Rattus norvegicus with 24 samples.

Results

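The antigen receptors of lymphocytes are read by a small set of proteins, and the RNA of 10 of them was followed in the liver of rats fed diets that differed in copper and sucrose. Cd3d, Cd3e and Cd3g encode the Cd3 chains that carry the signal of the T cell receptor into the cell. Cd4 and the pair Cd8a and Cd8b encode the coreceptors of helper and cytotoxic T cells, and Lck encodes the kinase that rides on them and phosphorylates the Cd3 chains. Cd79a and Cd79b are the signalling chains of the B cell receptor, and Blnk is the adaptor that links that receptor to its downstream enzymes. Liver holds lymphocytes in its sinusoids and portal tracts among a large excess of hepatocytes. In the rat Cd4 is also made by macrophages, and Blnk is found in myeloid cells as well as in B cells.

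The genes were found by their names in the scanner files, and each of the 10 had 1 probe among the 26278 gene names of the array. Of these 10, 9 had a probe well above background on at least 6 of 24 arrays and were tested among 18641 such genes. Cd3e was well above background on 1 array and was not tested.

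The samples were livers of 24 male Wistar rats, 1 array per rat, with 6 rats on each of 4 purified diets that all followed the AIN76A formula. The control diet had adequate copper (125 mg per kg) and 10% sucrose, and the low copper diet had under 0.3 mg of copper per kg and the same sucrose. The high sucrose diet had adequate copper and 30% sucrose, and the combined diet had low copper and 30% sucrose. Feeding began at 6 months of age on all diets and lasted 12 weeks, the rats were 9 months old at sampling, and starch and dextrin made up the carbohydrate. The sample titles call the 125 mg per kg diets high in copper, while the design text calls them adequate. The labels name each sample as a separate rat, so the p-values measure the spread between rats.

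Levels are log2 signals minus the 75th percentile of the array, so 0 is the brightness of that percentile and a step of 1 is a doubling. That percentile was 433 to 1284 signal units, the local background was 38 to 48, and 64.1 to 74.7% of spots per array were well above background. Correlations between arrays ran from 0.9641 to 0.9915. All 12 hepatocyte genes checked, among them Alb and Apob, were well above background on all 24 arrays. The arrays lay on 3 slides of 8. Slide 1 held the 6 combined diet rats and 2 high sucrose rats, slide 2 held 4 high sucrose and 4 low copper rats, and slide 3 held 2 low copper rats and the 6 controls. High sucrose and control rats therefore shared no slide, nor did combined diet and control rats. In bulk liver, fewer cells of a type and less RNA per cell cannot be told apart.

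Each value is the light from probes of 60 bases, and 6 of the 10 are shown. The letters run 5′ to 3′ as the scanner files give them, with no part marked, and each of the 6 holds an open reading frame over its whole length.
Lck: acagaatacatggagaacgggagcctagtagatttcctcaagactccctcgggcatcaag
Blnk: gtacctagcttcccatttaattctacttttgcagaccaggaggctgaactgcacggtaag
Cd8b: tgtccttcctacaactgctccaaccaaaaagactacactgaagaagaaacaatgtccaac
Cd3e: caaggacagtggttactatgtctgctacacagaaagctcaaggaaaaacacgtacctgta
Cd79a: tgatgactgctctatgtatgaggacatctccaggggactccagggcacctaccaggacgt
Cd79b: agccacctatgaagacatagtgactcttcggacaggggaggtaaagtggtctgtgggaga
The Lck probe lies on the minus strand of rn4 at chr5:148713169-148715276 and the Blnk probe on the minus strand at chr1:246099688-246102499. These spans of 2108 and 2812 bases are longer than the probes, so both are split over the genome, and the other 8 probes lie on single stretches of 60 bases. The Cd8b and Cd8a probes lie within 51.0 kb on the plus strand of chromosome 4, at chr4:104542505-104542564 and chr4:104593483-104593542. The 3 Cd3 probes fall within 26.0 kb of chromosome 8, Cd3g at chr8:47924376-47924435 (minus), Cd3d at chr8:47936669-47936728 (plus) and Cd3e at chr8:47950313-47950372 (minus). The Cd79a probe is at chr1:80193363-80193422 (plus), the Cd79b probe at chr10:95703614-95703673 (minus) and the Cd4 probe at chr4:160988512-160988571 (minus). The Cd3d probe holds the letters AATAAA, the poly(A) signal, from its base 50, as do 8.39% of the 30367 probes on the strand given, and none of the other 9 probes holds them. Of the 10 probes, 9 matched a transcript of the same symbol in RefSeq (GRCr8), and the Cd79a probe has an identifier of another database.

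Detection differed widely between these genes. Cd3d, Cd3g, Cd4 and Blnk were well above background on 24 arrays, Lck on 23, Cd8b on 22 and Cd8a on 21. Cd79b was well above background on 13 arrays and Cd79a on 10, and no array was saturated for any of them. Cd79a passed on 3 of 8 arrays of slide 1, on 7 of 8 of slide 2 and on 0 of 8 of slide 3, which holds all controls. Cd79b passed on 3, 7 and 3 arrays of the slides in the same order. The lone array with Cd3e well above background was control rat 1, at -5.11, where the 2 spots of the probe differed with an SD of 3.47. On the other 23 arrays Cd3e was between -7.72 and -6.20, not well above background.

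**Figure D1:**
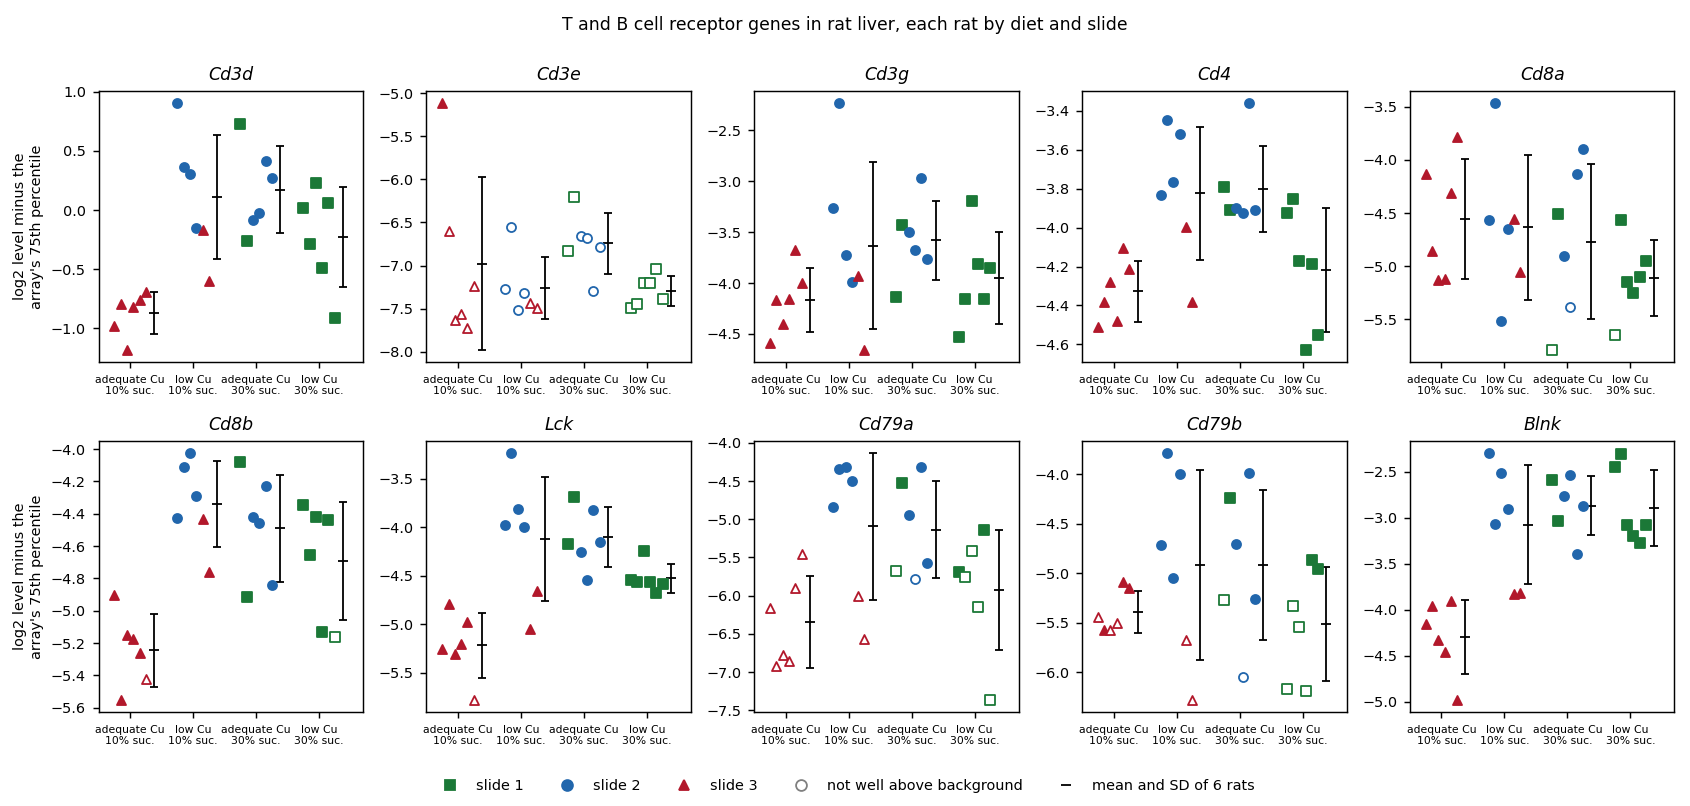
Level of each of the 10 genes in every rat (log2 signal minus the 75th percentile of the array), by diet on the horizontal axis. Shape and colour give the slide, open symbols are arrays where the probe was not well above background, and bars are the mean and SD of 6 rats. Control rats lie below all other rats for Blnk, and for Cd3d below all but combined diet rat 6.

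The tests compared diets in 1 limma fit with a mean per diet, and a call is a Benjamini-Hochberg adjusted p under 0.05 over all 18641 genes. Against the control diet, high sucrose alone and low copper alone each went with higher levels of 6 of the 9 genes, and these were Cd3d, Cd4, Cd8b, Lck, Cd79a and Blnk in both. Of all genes, 18.4% were called higher with high sucrose and 18.0% with low copper. Both comparisons use the same 6 control rats, so the shared names are not separate evidence. The median difference of the 9 genes was 0.75 with high sucrose and 0.90 with low copper, against 0.07 and 0.05 over all genes. Cd3g, Cd79b and Cd8a passed neither test. Diet overlapped with slide, and with slide as a fixed block none of these calls was left (0 of 9 genes in both comparisons, and 0% of all genes). The median difference of the 9 genes was then -0.07 with high sucrose and 0.14 with low copper, and the differences given next are those without a slide term.

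Blnk showed the largest measured difference with high sucrose. It lay between -4.98 and -3.90 (median -4.24) in controls, between -3.40 and -2.54 (median -2.82) in high sucrose rats and between -3.83 and -2.30 (median -2.99) in low copper rats. In combined diet rats it lay between -3.27 and -2.30 (median -3.08). Every rat on each of the 3 other diets was above every control rat. The difference from control was 1.43 ± 0.25 (SE, 2.69-fold, limma adjusted p = 0.00110) with high sucrose. It was 1.22 ± 0.25 (2.33-fold, limma adjusted p = 0.00216) with low copper and 1.40 ± 0.25 (2.64-fold, limma adjusted p = 0.0251) with the combined diet. The means of the 3 other diets, -2.87, -2.90 and -3.07, differed by less than the SD within a diet, which was 0.32 to 0.64.

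Lck, the kinase that starts signalling at the T cell receptor, was called higher with both single changes. Controls ran from -5.78 to -4.79 (median -5.23), high sucrose rats from -4.55 to -3.68 (median -4.16) and low copper rats from -5.05 to -3.23 (median -3.98). Combined diet rats were tightly grouped, from -4.67 to -4.24 (median -4.56). All high sucrose and all combined diet rats were above all controls, while low copper rat 5 lay among the controls. Lck rose by 1.12 ± 0.22 (SE, 2.17-fold, limma adjusted p = 0.00188) with high sucrose and by 1.10 ± 0.22 (2.14-fold, limma adjusted p = 0.00194) with low copper. With the combined diet the difference was 0.69 ± 0.22 and missed the threshold (limma adjusted p = 0.0932).

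Among the Cd3 chains, Cd3d was called and Cd3g was not. Cd3d lay between -1.18 and -0.69 (median -0.80) in controls, between -0.27 and 0.73 (median 0.12) in high sucrose rats and between -0.60 and 0.91 (median 0.07) in low copper rats. In combined diet rats it lay between -0.91 and 0.23 (median -0.14), and only rat 6 of that diet overlapped the controls. Cd3d rose 2.06-fold with high sucrose (1.04 ± 0.22, limma adjusted p = 0.00261) and 1.97-fold with low copper (0.98 ± 0.22, limma adjusted p = 0.00335). Cd3g had medians of -4.16 in controls, -3.59 with high sucrose, -3.83 with low copper and -4.00 with the combined diet, and all diets overlapped. Its differences were 0.58 ± 0.29 (limma adjusted p = 0.167) with high sucrose and 0.53 ± 0.29 (limma adjusted p = 0.250) with low copper. Cd3d and Cd3g each had 10 spots per array. The SD between single spots of an array was 0.34 for Cd3d and 0.18 for Cd3g. Between rats of a diet the SD was 0.40 for Cd3d and 0.53 for Cd3g. Levels are means over the 10 spots, so the SD of single spots overstates the spot error in a level.

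The coreceptor genes also split. Cd8b lay between -5.55 and -4.91 (median -5.22) in controls, between -4.92 and -4.08 (median -4.44) with high sucrose and between -4.76 and -4.03 (median -4.36) with low copper. Every low copper rat was above every control, and high sucrose rat 2 overlapped control rat 1. Cd8b rose by 0.75 ± 0.17 (SE, 1.69-fold, limma adjusted p = 0.00406) with high sucrose and by 0.90 ± 0.17 (1.87-fold, limma adjusted p = 0.00139) with low copper. Cd8a, its partner in the Cd8 heterodimer, had medians of -4.58 in controls, -4.71 with high sucrose, -4.61 with low copper and -5.12 with the combined diet. Its differences from control were -0.21 ± 0.33 and -0.08 ± 0.33 (limma adjusted p = 0.699 and 0.918), and 3 of the 6 rats with the highest Cd8a were controls. Cd4 rose 1.44-fold with high sucrose (0.53 ± 0.16, limma adjusted p = 0.0184) and 1.42-fold with low copper (0.50 ± 0.16, limma adjusted p = 0.0245). Its controls lay between -4.51 and -4.10 (median -4.33), below all high sucrose rats (-3.93 to -3.36, median -3.90), while low copper rat 6 at -4.38 fell among them.

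The B cell receptor chains were near the limit of detection. Cd79a was well above background in 0 of 6 controls, 4 of 6 high sucrose, 4 of 6 low copper and 2 of 6 combined diet rats. Its measured medians were -6.48, -5.26, -4.67 and -5.73 in that order, and the ranges of all diets overlapped. Since no control array measured it, the size is set against a floor. The mean of the brighter diet is compared with, per control array, the dimmest signal well above background or the probe's own signal if higher. On this scaling that gave 2.16-fold with high sucrose and 2.23-fold with low copper. The means include rats not well above background, so these sizes are not strict lower limits. The tests were of the measured differences, 1.21 ± 0.41 (limma adjusted p = 0.0393) and 1.25 ± 0.41 (limma adjusted p = 0.0345). With slide as a fixed block the differences were -0.60 and 0.06. Cd79b had medians of -5.48 in controls, -4.98 with high sucrose, -4.88 with low copper and -5.44 with the combined diet. Its difference from control was 0.47 ± 0.37 in both comparisons (limma adjusted p = 0.408 and 0.471).

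Groups that did not overlap gave a smaller count. In 4 of 9 genes (Cd3d, Cd4, Lck and Blnk) every high sucrose rat was above every control, as in 11.9% of all genes. In 3 of 9 (Cd3d, Cd8b and Blnk) every low copper rat was, against 5.12% of all genes. For the combined diet it was 2 of 9 (Lck and Blnk), against 2.77%.

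The combined diet gave fewer calls than either change alone. Blnk alone of the 9 was called against the control diet, where 1.72% of all genes were called higher, and 4 of the 9 had an unadjusted p under 0.05, as did 17.1% of all genes. The Blnk call was lost without combined diet rats 1 or 2 or control rats 4 or 6, with a limma adjusted p of up to 0.0839. Lists of called genes do not show that diets differ, so the interaction was fitted as the copper difference at 30% minus that at 10% sucrose. It was called for 6 of the 9 genes, all below 0, while 18.9% of all genes were called lower. The values were -1.38 ± 0.31 for Cd3d, -0.92 ± 0.22 for Cd4, -1.11 ± 0.24 for Cd8b, -1.52 ± 0.32 for Lck, -2.04 ± 0.58 for Cd79a and -1.25 ± 0.36 for Blnk. Their limma adjusted p-values were 0.00418, 0.00586, 0.00366, 0.00281, 0.0155 and 0.0158. For Cd79a the interaction includes the controls in which it was not well above background.

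Between diets that each carry a change, limma called none of the 9 genes. Low against adequate copper at 30% sucrose gave 0 calls of 9 and 0% of all genes, with a median member difference of -0.40. Sucrose at low copper gave 0 calls of 9, 0% of all genes and a median of -0.39. In each of these comparisons 1 of the 9 genes, Cd4, had an unadjusted p under 0.05, near the share over all genes (9.87% for copper at 30% sucrose and 9.58% for sucrose at low copper). The difference of Cd4 was -0.42 ± 0.16 (limma adjusted p = 0.465) for low copper at 30% sucrose and -0.39 ± 0.16 (limma adjusted p = 0.480) for sucrose at low copper. Combined diet rats 4 and 6 had the lowest Cd4 of all rats, at -4.63 and -4.55.

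Slide moved with these results. In the low copper diet, which lay on slides 2 and 3, all 4 rats of slide 2 were above both rats of slide 3 for 7 of the 9 genes, against 17.9% of all genes. These differences within 1 diet were 0.74 for Cd3d, 0.55 for Cd4, 0.39 for Cd8b, 1.10 for Lck, 1.79 for Cd79a, 1.59 for Cd79b and 1.13 for Blnk. For Cd79a and Cd79b neither low copper rat of slide 3 was well above background, so their sizes rest on values near background. The differences were above 0 for all 9 genes with a median of 0.99, while the median over all genes was 0.05. With normexp, quantile normalization and the authors' table they were above 0 for 9, 7 and 8 genes, with medians of 0.29, 0.69 and 0.39. In the high sucrose diet, 4 rats on slide 2 and 2 on slide 1 differed by a median of -0.05 over the 9 genes, against -0.08 over all genes. None of the 9 separated, while slide 2 lay wholly above slide 1 in 5.95% of all genes and wholly below in 14.0%.

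**Figure D2:**
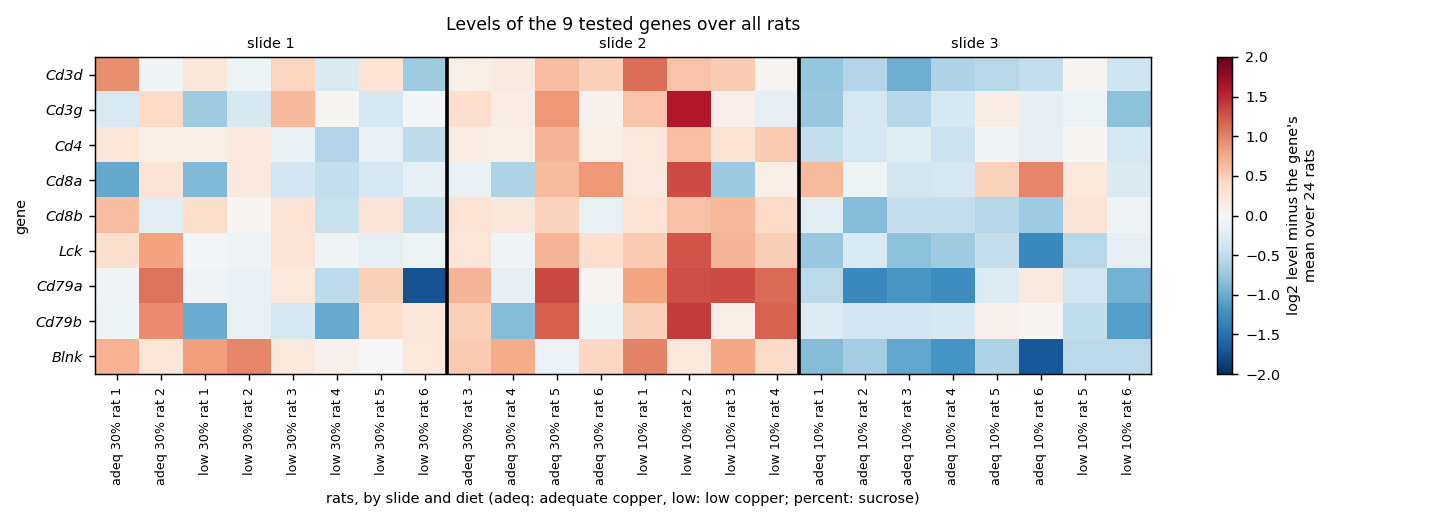
Levels of the 9 tested genes (log2, minus the mean of each gene over 24 rats; red above, blue below), with rats in columns ordered by slide and diet. Slide 3, with the 6 controls and 2 low copper rats, is the blue block for Blnk and Lck, and slide 2 holds 5 of the 6 rats with the highest Lck, Cd3d, Cd4, Cd79a and Cd79b.

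Within slide 3 the low copper diet could be set against controls directly, with 2 rats against 6. Both low copper rats were above all controls for Cd3d (difference of means 0.49), Cd8b (0.65) and Blnk (0.47), as in 7.53% of all genes. Both were below all controls for Cd79b (difference of means -0.59), as in 1.79% of all genes. Cd79b was well above background in 0 of these 2 rats and in 3 of the 6 controls, so that order rests on values near background. The median over the 9 genes was 0.14 there, against 0.90 with all rats. Within slide 1, 6 combined diet rats met 2 high sucrose rats. Lck was lower there in every combined diet rat (difference of means -0.60), as in 7.54% of all genes. Within slide 2 the high sucrose rats were below the low copper rats on average for all 9 genes (median -0.21, against -0.08 over all genes, of which 33.8% were above 0). None of the 9 separated, as against 3.08% of all genes wholly below and 0.354% wholly above.

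With slide as a random block, limma called 4 genes, Cd3d, Cd8b, Lck and Blnk, in both single changes from control. The shares of all genes called higher were then 6.35% for high sucrose and 12.2% for low copper. The combined diet then gave 0 calls (0% of all genes called higher), and the interaction was called lower for Cd3d, Cd4, Cd8b and Lck, against 9.49% of all genes. With slide as a fixed block, which uses differences within slides, limma called 0 of 9 genes in each of the 3 comparisons with control, where 0% of all genes were called. The interaction then had 0 calls of 9, with 0.0536% of all genes called. At an unadjusted p under 0.05 the fixed block had 0 of the 9 with high sucrose (4.07% of all genes), 1 with low copper (Cd8b, 0.65 ± 0.24; 6.72% of all genes) and 1 with the combined diet (Cd79b, -1.96 ± 0.73; 4.54% of all genes). For the interaction it had 3 (Cd3d, Cd8b and Lck), against 13.6% of all genes. High sucrose and control rats share no slide, so the fixed block reaches that difference only through the low copper rats fed 10% sucrose, which lie on slides 2 and 3.

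**Figure D3:**
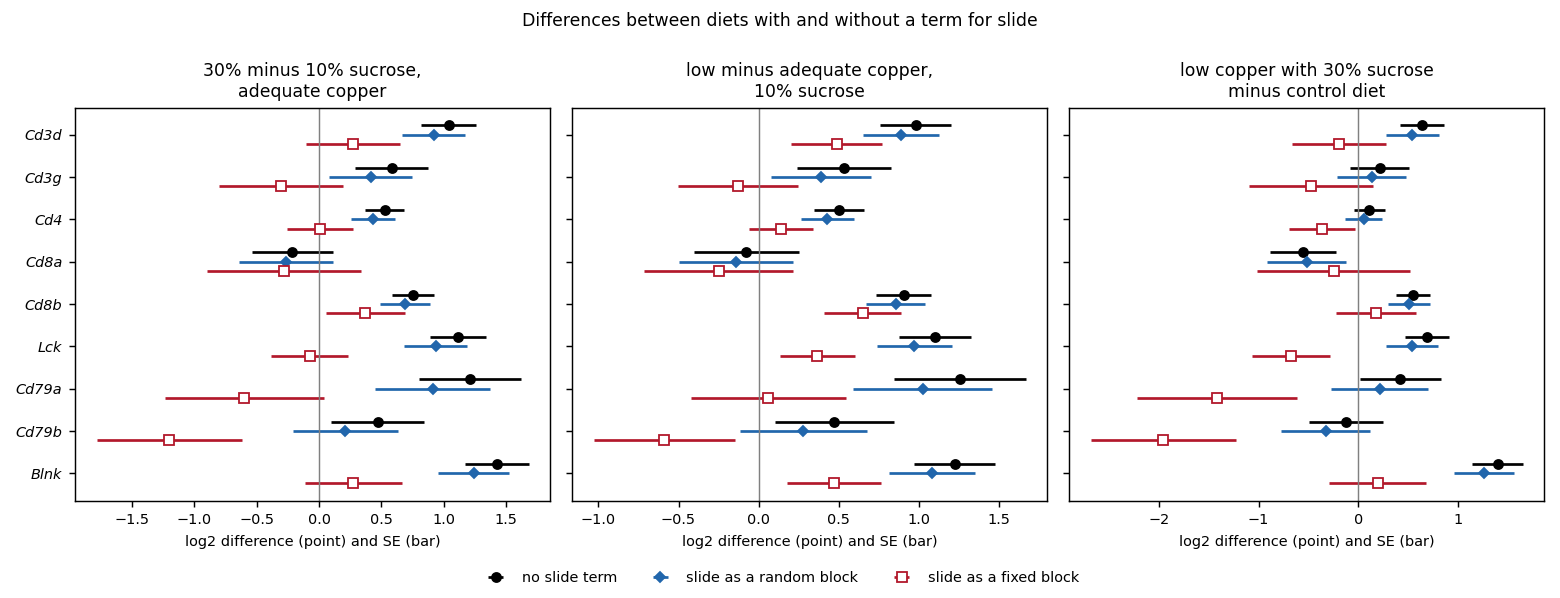
Differences from the control diet (log2, points) with SE (bars) for 9 genes under high sucrose, low copper and both, fitted with no slide term, with slide as a random block and with slide as a fixed block. Cd79a is drawn at its measured difference although no control array was well above background for it. The fixed block moves Lck from 1.12 to -0.07 with high sucrose, while Cd8b with low copper moves from 0.90 to 0.65.

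How the arrays were scaled also changed calls and sizes. Under normexp background correction, quantile normalization and the authors' table, Cd3d, Lck and Blnk were called in both single changes from control, and Cd4, Cd8b and Cd79a in neither. Cd4 was then 0.10 to 0.31 higher with high sucrose (limma adjusted p of 0.119 to 0.340), Cd8b 0.12 to 0.34 (0.114 to 0.296) and Cd79a 0.21 to 0.64 (0.108 to 0.235). With low copper the differences were 0.09 to 0.28 for Cd4, 0.19 to 0.44 for Cd8b and 0.23 to 0.70 for Cd79a. The genes that stayed called had smaller differences as well. Lck was 0.36 to 0.68 higher with high sucrose and 0.33 to 0.66 with low copper, and Blnk 0.63 to 1.12 and 0.55 to 0.91. Cd3d moved least, at 0.95 to 1.01 and 0.90 to 0.96. Its probe was also the brightest of the 10, with signals of 333 to 1105 against 25 to 154 for Cd3g. Whether the Cd3d probe follows T cell content was not tested. Blnk with the combined diet was called under none of the 3 (0.59 to 1.18, limma adjusted p of 0.0633 to 0.239). The interaction was called for Cd3d and Lck under all 3 and for Cd4, Cd8b, Cd79a and Blnk under 1. Over all genes the calls in the high sucrose comparison were 3426 higher and 462 lower. They were 1963 and 382 with normexp, 1693 and 816 with quantile normalization and 1408 and 926 with the authors' table. For low copper they were 3358 and 111, against 1980 and 79, 1680 and 381, and 1467 and 389 in the same order. For the interaction they were 361 and 3523, against 370 and 3289, 793 and 1781, and 743 and 1566. The interaction of Cd8a, -0.26 ± 0.46, turned to 0.42 with quantile normalization. Single rats decided some calls. Cd4 with high sucrose was lost without high sucrose rat 5 (limma adjusted p = 0.0565). Cd79a with high sucrose was lost without high sucrose rat 2, 3 or 5 or control rat 1, 2, 3 or 4 (limma adjusted p of up to 0.102). With low copper it was lost without low copper rat 1, 2, 3 or 4 or control rat 2, 3 or 4 (up to 0.0943). Cd4 with low copper was lost without low copper rat 2, 3 or 4 or control rat 1 or 4 (up to 0.0721).

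Genes whose products work together were compared between rats of the same diet and slide. For 5 pairs, each rat's level was taken minus the mean of the rats of its diet and slide, and the 24 rats were permuted within diet and slide 100000 times (two-sided). Cd3d and Cd3g had a Pearson r of 0.19 (permutation p = 0.494, adjusted over 5 pairs 0.494) and a Spearman rho of 0.19 (permutation p = 0.458). Cd8a and Cd8b had an r of -0.26 (permutation p = 0.297, adjusted 0.494) and a rho of -0.25 (permutation p = 0.342). Neither pair of chains shows a relation beyond the spread at this number of rats.

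The pairs with a Cd79 chain rest largely on values near background, since Cd79b was well above background on 13 and Cd79a on 10 of 24 arrays. Cd79a and Cd79b had an r of 0.43 (permutation p = 0.0748, adjusted 0.187) and a rho of 0.48 (permutation p = 0.0361, adjusted 0.0904). Leaving out the 2 rats farthest from the median of Cd79a gave an r of 0.65. Cd4 and Lck had an r of 0.18 (permutation p = 0.401, adjusted 0.494) and a rho of 0.14 (permutation p = 0.542), and 0.05 without the 2 farthest rats. Cd79b and Blnk had an r of -0.53 (permutation p = 0.0170, adjusted 0.0849) and a rho of -0.58 (permutation p = 0.0133, adjusted 0.0665). Without the 2 farthest rats that r was -0.41, for Cd3d and Cd3g it was 0.12 and for Cd8a and Cd8b -0.30. No pair passed after adjustment. Without centring, r was 0.54, -0.19, 0.68, 0.70 and 0.16 for the pairs in the order given, and those values hold the differences between diets and slides.

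**Figure D4:**
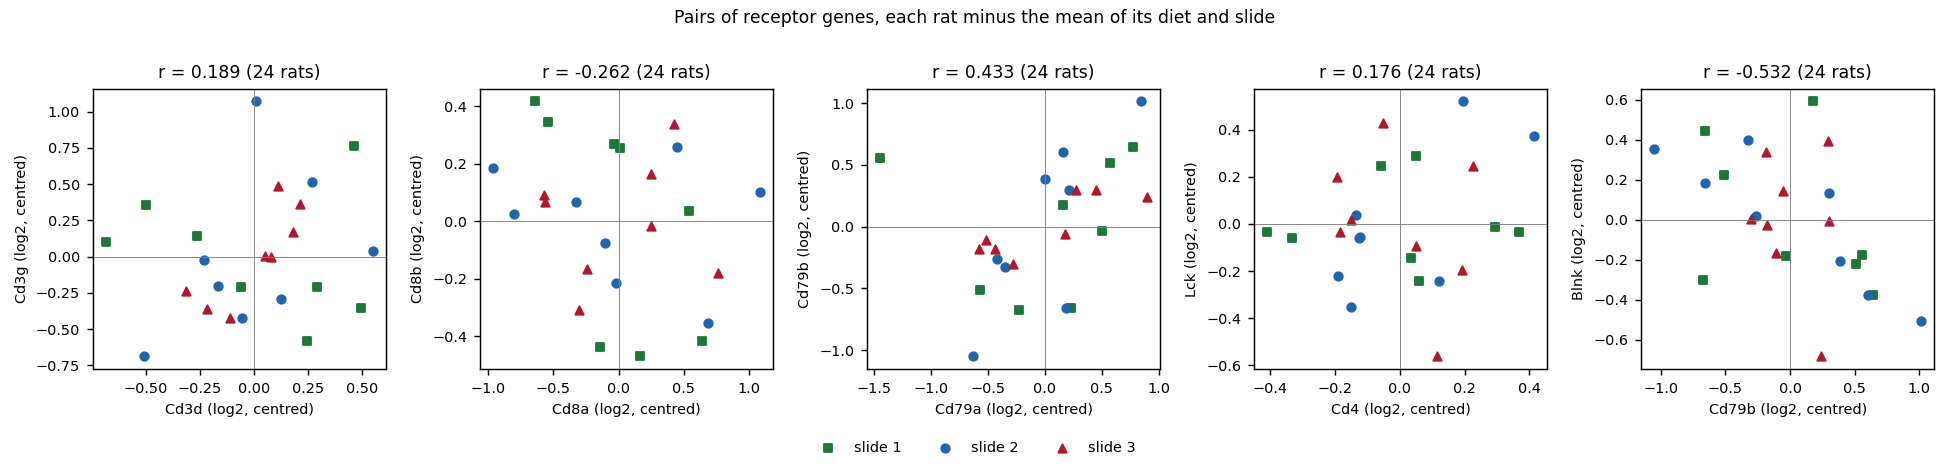
Levels of 5 pairs of genes in 24 rats (log2, each minus the mean of the rats of the same diet and slide), with shape and colour for slide. Pearson's r stands above each panel, and Cd79a with Cd79b (0.433) and Cd79b with Blnk (-0.532) lie farthest from 0.

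The 5 genes most like Cd3d and the 5 most like Cd79b over the 24 rats, by Pearson correlation of the same centred levels, held none of the other members. For Cd3d they were an uncharacterized transcript (r = 0.956), Spata2 (0.949), Csn1s1 (0.945), a probe with no gene name (0.938) and Spsb4 (0.935). For Cd79b they were Znfx1 (0.88), Gpr115 (0.797), Renbp (0.748), Rasgrp2 (0.745) and Chst13 (0.739). Without centring 0 of the 5 for Cd3d and 2 of the 5 for Cd79b remained. These correlations were picked as the highest of 18641 genes and share the arrays and their scaling, so they are descriptions.

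Other genes of the same cells were counted from lists, to be read beside the 18.4% (high sucrose) and 18.0% (low copper) of all genes called higher. Of 24 T cell genes, 15 were tested, and 7 of the 15 rose with high sucrose and 5 with low copper (medians 0.56 and 0.51). Those of lowest p were Ccr7, the lymph node homing receptor (0.89 ± 0.22, limma adjusted p = 0.00646), Sit1, a transmembrane adaptor of T cells (1.20 ± 0.30, 0.00652), and Zap70, the kinase that binds phosphorylated Cd3 chains (0.86 ± 0.22, 0.00816). With the fixed slide block those differences were -0.17, -0.43 and -0.14. Cd5, another of the 7, was well above background on 9 arrays and in 1 control rat, so its rise rests on control values near background. The T cell count of 7 was 5, 3 and 0 with normexp, quantile normalization and the authors' table. Of all 18641 genes, 1963, 1693 and 1408 were then called higher with high sucrose, against 3426 in the main fit. The low copper count stayed at 4 or 5, where 1980, 1680 and 1467 of all genes were called higher, against 3358. Cd28, Cd40lg and Cd96 were well above background on 0 arrays, and Cd2 on 1. Of 22 B cell genes, 10 were tested, and 3 rose with high sucrose and 2 with low copper (medians 0.54 and 0.39). The 3 were Pou2af1, a coactivator of octamer-binding factors in B cells (0.77 ± 0.23, limma adjusted p = 0.0181), Fcrla (0.93 ± 0.32, 0.0393) and the tetraspanin Cd37 (0.83 ± 0.29, 0.0476). Cd37 was well above background on 8 arrays and in 1 control rat. Bank1, called with low copper, was so on 9 arrays and in 0 control rats. The sizes of both rest on control values near background. None of the 10 B cell genes was called with high sucrose under those 3 scalings, where Fcrla, Pou2af1 and Cd37 were 0.07 to 0.75 higher. Ms4a1, which encodes Cd20, was well above background on 2 arrays and Cd22 on 1.

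Marker lists of other cells differed in how many of their genes were called. With high sucrose 1 of 10 NK and cytotoxic lymphocyte genes (Xcl1, 0.82 ± 0.23, limma adjusted p = 0.0129) and 2 of 16 macrophage genes were called higher. These shares were below the 18.4% of all genes in the main fit. The macrophage genes were Itgam (0.87 ± 0.22, 0.00721) and Csf1r (0.69 ± 0.20, 0.0177). With low copper the counts were again 1 and 2. The fixed slide block took the median of the NK list with high sucrose from 0.30 to -0.65 and that of the macrophage list from 0.35 to -0.21. Of 7 neutrophil genes 5 rose with high sucrose and 2 with low copper. The 3 of lowest p with high sucrose were Cxcr2 (1.90 ± 0.32, limma adjusted p = 0.000973), Csf3r (1.54 ± 0.27, 0.00110) and Camp (0.97 ± 0.28, 0.0157). The largest rises of the list, named after their values were seen, were S100a8 (2.94 ± 0.85, limma adjusted p = 0.0163) and S100a9 (2.75 ± 0.80, 0.0172), which together encode calprotectin. Of 6 red blood cell genes 2 rose with high sucrose, Ahsp (1.30 ± 0.37, limma adjusted p = 0.0147) and Alas2 (1.58 ± 0.56, 0.0468). With low copper 0 of the 6 were called by limma, and 3 (Ahsp, Alas2 and Hba-a2) had an unadjusted p under 0.05, as did 28.1% of all genes. With high sucrose none of 12 hepatocyte genes was called by limma, and 1 was called with the authors' table. Of the 12, 2 (Cps1 and Hpd) had an unadjusted p under 0.05, a smaller share than the 32.9% of all genes. Under the 3 other scalings the high sucrose counts for NK and macrophage genes were the same. Fewer of all genes were then called higher (1963 with normexp, 1693 with quantile normalization and 1408 with the authors' table, against 3426). The macrophage share was then not below that of all genes, and the NK share was below it only with normexp. The neutrophil count was 3 to 5 and the red blood cell count 0 or 1, and with low copper the neutrophil count was 1 to 3.

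The mean level of a list in each rat shows how far the groups overlapped. The macrophage list ran from -0.15 to 0.66 in controls and from 0.34 to 1.47 with high sucrose, and the T cell list from -3.87 to -3.66 and from -3.36 to -2.94. The neutrophil list ran from -4.59 to -4.07 in controls and from -3.40 to -0.87 with high sucrose, and Elane, a granule protease of immature neutrophils, was well above background on 0 arrays. The red blood cell list ran from 0.39 to 1.95 and from 0.81 to 3.93. In low copper rats the ranges were -0.35 to 2.06 for macrophages, -4.09 to -2.59 for T cells, -4.04 to -1.59 for neutrophils and 1.37 to 2.77 for red blood cells. The part of these cells in the values of Cd4 and Blnk was not tested.

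**Figure D5:**
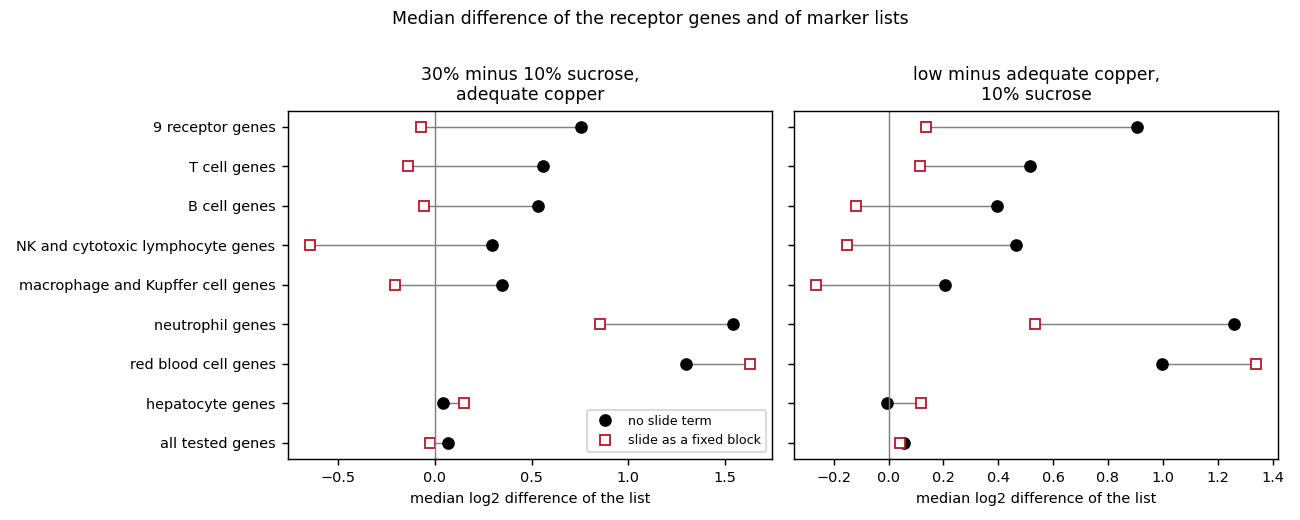
Median log2 difference of the 9 tested receptor genes, of 7 lists of marker genes and of all tested genes, for high sucrose and for low copper against the control diet, with no slide term (filled) and with slide as a fixed block (open). The receptor genes move from 0.75 to -0.07 and from 0.90 to 0.14. The red blood cell list moves from 1.3 to 1.63 and from 0.998 to 1.34. The neutrophil list moves from 1.54 to 0.851 and from 1.26 to 0.533.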

How the data were processed

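Liver RNA of 24 rats was hybridised to one-colour Agilent arrays. Per the file headers, spots were read with Agilent Feature Extraction 10.7.3.1 (protocol GE1_107_Sep09), and probe positions refer to rn4. The deposited processed signal, mean signal and local background are intensity values without scaling between arrays. The authors' table is a score: it has the order of the mean signal on every array, and it is a linear transform of the quantile-normalized mean signal (multiplied by 662 and raised by 115.2 to return to that scale). The deposited spot marks are of the unit other.

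Control spots (4259) and marked spots (0.652%) were left out of 62976 spots per array. The log2 processed signal minus the array's 75th percentile was averaged per probe. Probes well above background on at least 6 arrays were kept (21179), and the brightest stood for a gene. Diets were compared with limma 3.58.1 in R 4.3.3, with Benjamini-Hochberg adjustment at 0.05 in each of 6 comparisons. The fit was tested on simulated data. The number of arrays limits precision.

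The members, lists and tests were chosen with earlier results of these data known. Named were all 10 genes, with a test for each call or, in a comparison without calls, for the gene of lowest p. The 3 lowest p in each list with high sucrose and the 5 genes most like Cd3d and Cd79b were also named. Other settings were normexp (offset 50), quantile normalization, the authors' table, no filter or all arrays in the filter, blocks for slide and for replicate number, averaged probes, a variance trend, array weights, pairwise fits and leave-one-out fits. Added after the data were seen were fits on slides 1 and 3 or 1 slide alone, leaving out 2 rats, and the marker lists under other scalings.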

Additional observations from a re-analysis of the deposited data

Results flagged for a closer look

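In a group of 6 rats, 1 level stood apart from the others by Dixon's criterion in 3 of 40 groups, and chance gives about 1 in 20 groups. These were Cd4 in high sucrose rat 5 (-3.36, the highest of its diet), Lck in combined diet rat 3 (-4.24, the highest) and Cd3e in low copper rat 2 (-6.55, the highest, on an array not well above background for it).

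The copper difference at 30% sucrose minus that at 10% sucrose was past the threshold in limma for 6 genes, with -1.38 for Cd3d, -0.92 for Cd4, -1.11 for Cd8b, -1.52 for Lck, -2.04 for Cd79a and -1.25 for Blnk. Of all genes, 18.9% were called lower in this interaction. With slide as a fixed block 0 of the 9 tested genes were called, and 0.0536% of all genes. Without a slide term, low copper went with higher levels at 10% sucrose, and at 30% sucrose none of the 6 was called.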

How the results depend on the processing

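Of the 9 genes tested, 6 were called with high sucrose. Normexp, quantile normalization, the authors' table, slides 1 and 3 alone and the filter on all 24 arrays gave 3 each (the last of 4 tested), and slide as a fixed block 0, where Lck turned to -0.0742 and Cd79a to -0.60. With low copper the count of 6 became 3 under the same 3 scalings and the filter, and 0 with the fixed block, on slide 3 alone and on slides 1 and 3 alone. Leaving out single rats gave 4 to 6 in both. The combined diet's count of 1 became 0 with each scaling and with either slide block, 2 with a replicate block, with only the groups compared and on slides 1 and 3 alone, 3 without both low copper rats of slide 3, 4 with array weights, and 0 to 3 without single rats. The interaction's count of 6 became 2 with quantile normalization and with the authors' table, 3 with the filter, and 0 with the fixed block and on slides 1 and 3 alone. Sucrose at low copper went from 0 to 4 lower calls without both low copper rats of slide 3. Without single rats the interaction gave 6 to 8 calls. Where no count of all genes called stands beside a setting, its count shows how calls depend on that setting. Such a count is no result about the receptor genes. The block on replicate number moved no other count by over 1.5 times. Same-numbered rats correlated from -0.29 to 0.36, which gave no sign that the numbers pair rats but cannot exclude it. Low signal limits Cd79a, Cd79b and Cd3e most, and the overlap of diet and slide limits every comparison with control.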
